A study of Drosophila melanogaster with 19 samples.

Results

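Asense (Ase) was over-expressed in the notum of Drosophila pupae, and gene expression was compared with that in notums that expressed green fluorescent protein (GFP). The comparison rests on the 3 Ase and 3 GFP arrays, chosen by their titles out of the 19 arrays of the study, and covers all 18769 probe sets. Every pupa carried sca-Gal4, which drives transgenes in the pattern of scabrous, and tub-Gal80ts, a temperature-sensitive inhibitor of Gal4. The Ase group also carried UAS-Ase and the control group UAS-GFPnls. Crosses were held at 18 °C, so that the transgenes were off, and spent 6 h at 29 °C until the notums were taken at 16 h after puparium formation (APF). Each array held RNA of 8 to 12 pooled notums. The remaining groups, used here for context, carried in place of these UAS-Ac (2 arrays), UAS-Sens (3), UAS-E(spl)m3-HLH (m3, 3), UAS-Ac with UAS-Sens (Ac+Sens, 3), or UAS-Ase with UAS-E(spl)m3-HLH (Ase+m3, 2). No group without a transgene or with uninduced Ase was analysed here, and the sex of the animals was not stated. As the RNA came from whole notums, a change in the number of cells of a type and a change of RNA per cell cannot be told apart.

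Asense is a basic helix-loop-helix (bHLH) transcription factor related to Achaete and Scute. These proneural factors pair with Daughterless, bind E-box sequences and give cells of the epidermis the ability to become sensory organ precursors, from which the bristles of the notum arise. Asense itself appears in the precursor after it has been chosen and in neuroblasts of the central nervous system. Notch signalling between neighbouring cells, through the bHLH repressors of the Enhancer of split complex, restricts the precursor fate to few cells.

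Levels are given as log2 probe set signals and differences as log2 signal in Ase minus GFP, so a difference of 1 is a doubling. On Ase replicate 3, 60.3% of probe sets were listed at exactly 0, all in the dim range (the mean of Ase replicates 1 and 2 was at most 5.97 there). These values were taken as missing, so a gene listed at 0 there has 2 Ase arrays. Other dim genes kept a value on Ase replicate 3, such as Cyp4p1 (3.68), Cyp4p2 (3.97), Zip102B (4.04) and GstD5 (3.84). These genes were brighter in GFP. CG43117 kept none, although it was at 4.38 and 4.41 on the other Ase arrays. Whether a value was kept thus did not follow the Ase level alone, and changed genes may have kept an Ase array that unchanged dim genes lacked. No detection calls were used, so whether a dim probe set is above background is unknown, and a difference from a dim level is one of deposited signals rather than a measured fold of RNA. The 6 arrays had median Spearman correlations of 0.973 to 0.985 with the other arrays, and probe sets differed by a median of 0.0838 to 0.115 between Ase arrays and 0.0878 to 0.206 between GFP arrays. Outside this comparison, arrays that stood apart were Ase+m3 replicate 2 (median correlation 0.890) and the array labelled Sens replicate 1, whose sens and sc levels go against its label. In the groups labelled Ac and Ac+Sens, the ac probe set averaged 6.80 and 6.97, near its 6.98 in GFP, whereas sc averaged 10.39 and 10.33 against 7.09 in GFP. Whether the ac probes read the transgene is unknown, and these groups are called here by their labels. These arrays touch the Ase against GFP values only through the pooled spread. Markers of the notum, such as pnr, ara and mirr, were at levels of 7.48 to 9.79 in GFP and 7.35 to 10.06 in Ase, with 8 of 8 measured and 0 called different.

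The gene of the transgene was examined first. The ase probe set stood at 5.45 and 5.68 on the Ase arrays with a value and at 5.58, 5.23 and 5.15 on the GFP arrays. These levels overlapped, and the difference of 0.24 (SE 0.28) had an adjusted p of 0.725. Whether the probes read the transgene is unknown, so this level does not check the label. The other genes used as transgenes were also near their control level, with differences of 0.07 (SE 0.22) for ac, 0.19 (SE 0.61) for sens and 0.07 (SE 0.10) for E(spl)m3-HLH. For sc, the neighbour of ac, it was 0.13 (SE 0.64). The SEs of sens and sc include the spread among Sens arrays. Their 95% intervals, −1.10 to 1.48 for sens and −1.23 to 1.49 for sc, are wide, whereas that of E(spl)m3-HLH was −0.14 to 0.28.

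Among the genes that rose most in Ase against GFP were the heat shock cognate gene Hsc70-2, the uncharacterised genes CG4962 and CG18666, the Osiris family gene Osi9 and the precursor gene phyl. The largest differences were falls, and Cyp4p2, Hasp, Zip102B and Cyp4p1 fell by more than 3 log2 units. In all, 233 of 18769 probe sets (1.24%) were called at an adjusted p under 0.05, 188 higher (1.0%) and 45 lower (0.24%). With 1 probe set for each of 11982 genes, 169 were called (1.41%), of which 133 rose (1.11%) and 36 fell (0.3%). The median rise was 0.68, with a range of 0.34 to 3.40, and 38 genes rose at least 2-fold. The median fall was −0.73, and 11 genes fell at least 2-fold. The arrays of both groups did not overlap for any called gene, and for 35.2% of all genes.

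The excess of rises over falls depended on the scaling. The median difference of all genes was 0.09, and 68.6% of genes had a positive difference. After quantile normalization was repeated, 62 probe sets were higher and 52 lower, and the median of all probe sets moved from 0.08 to −0.06. With a trend by gene length removed, 108 were higher and 57 lower, with a median of 0.01. The total of 233 was 84 without Ase replicate 1, 101 without Ase replicate 2, 114 without GFP replicate 1, 101 without GFP replicate 2, and 501 (412 higher and 89 lower) without the 2 Ase+m3 arrays.

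Hsc70-2, a constitutive relative of the Hsp70 chaperones, was among the genes that rose most. Its level was 6.49, 6.46 and 6.03 on the Ase arrays and 2.90, 3.08 and 2.81 on the GFP arrays. The difference was 3.40 (SE 0.12, 95% interval 3.15 to 3.65, adjusted p = 3.06e-09). The GFP level is dim, and the probe set was listed at 0 on the third array of Sens, m3 and Ac+Sens. In every other group the gene was near the GFP level, with means of 2.82 in Ac, 3.04 in Sens, 2.69 in m3, 3.12 in Ac+Sens and 3.10 in Ase+m3. The gene was thus low in the second group that carried UAS-Ase. Of the 13 measured heat shock genes it was the only one called (7.69%, against 1.41% of all genes), and the median of that list was 0.05. Hsc70-3, the chaperone of the endoplasmic reticulum, had a difference of 0.16 (adjusted p = 0.449), the co-chaperone gene DnaJ-1 of −0.45 (adjusted p = 0.509) and the heat shock factor gene Hsf of 0.11 (adjusted p = 0.585).

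CG4962 rose by 3.39 (SE 0.16, adjusted p = 1.02e-07). It was at 7.43, 7.58 and 7.73 in Ase and 4.52, 4.10 and 3.95 in GFP. It was also above the GFP arrays on each Ase+m3 array (mean 6.33) and each Ac array (mean 5.31), and near GFP in Sens, m3 and Ac+Sens (3.58, 3.67 and 4.26). CG18666 was at 6.03, 5.96 and 5.42 in Ase against 2.80, 3.09 and 2.97 in GFP, a rise of 2.85 (SE 0.14, adjusted p = 1.76e-07). Its mean in Ase+m3 was 6.06, and between 2.89 and 3.30 in the 4 groups without UAS-Ase or GFP. Both genes were therefore high on all 5 arrays that carried UAS-Ase.

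Osi9 belongs to the Osiris family, whose members encode transmembrane proteins made in cuticle-forming epithelia. It was at 6.36, 6.24 and 6.21 in Ase and at 3.45, 3.73 and 3.51 in GFP, a rise of 2.71 (SE 0.19, adjusted p = 6.24e-06). The Ase+m3 arrays averaged 5.78, Ac 4.98 and Ac+Sens 4.78, while Sens and m3 were at 3.51 and 3.62. Of 24 Osiris genes measured, Osi9 was the only one called (4.17%, against 1.41% of all genes). The list's median was 0.08, and the member with the next smallest p among those named, Osi24, was at 0.68 (adjusted p = 0.176). For 23 of these 24 genes Ase replicate 3 kept only a value of 0, and Osi9 was the exception. Osi9 was listed at 0 on the third array of Sens, m3 and Ac+Sens, and kept its value in Ase, where it was highest. Its test thus had an Ase array that the other members lacked.

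phyl encodes the adaptor Phyllopod, which brings the repressor Tramtrack to the ubiquitin ligase Sina and is needed for the precursor fate. Its level was 7.65, 7.54 and 7.64 on the Ase arrays and 5.81, 5.21 and 5.25 on the GFP arrays. The rise was 2.19 (SE 0.21, adjusted p = 2.96e-05), or 4.56-fold. Means were 7.58 in Ase+m3 and 7.75 in Ac+Sens, 6.78 in Ac and 6.69 in Sens, and 5.44 in m3. Thus the groups with Ase, Ac or Sens all lay above GFP and m3, and Ase was above the mean of Ac, Sens and m3 by 1.31 (95% interval 0.93 to 1.69, adjusted p = 0.00106).

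**Figure D1:**
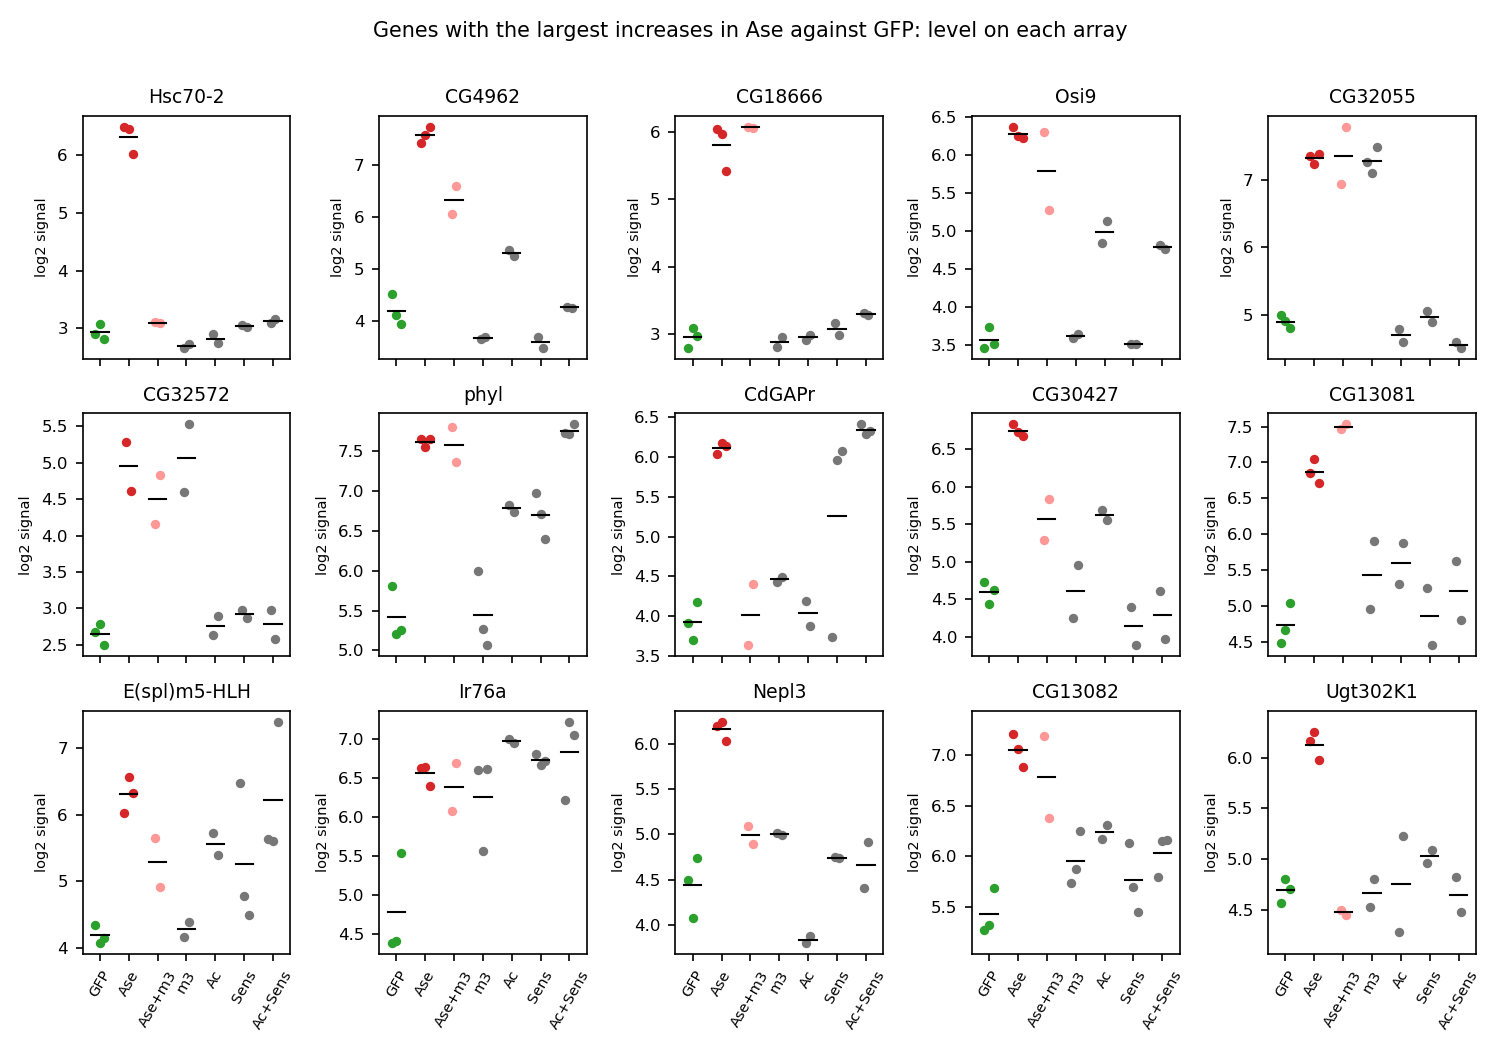
Log2 signal of the 15 called genes with the largest increase, on each array (points) with the group mean (bar), by group. Green is GFP, red Ase and pink Ase+m3, and the panels have their own scales. All Ase arrays lie above all GFP arrays in each panel, while the other groups differ from gene to gene: Hsc70-2 is low in all of them, CG18666 is high also in Ase+m3, CG32055 also in m3 and Ase+m3, and Ir76a in all 6 groups other than GFP.

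Other strongly raised genes were also high in m3, the group that over-expressed the repressor. CG32055 was at 7.36, 7.24 and 7.39 in Ase and 4.99, 4.91 and 4.80 in GFP, a rise of 2.43 (SE 0.17, adjusted p = 2.09e-06). Its means were 7.29 in m3 and 7.36 in Ase+m3, and 4.55 to 4.97 in Ac, Sens and Ac+Sens. CG32572 had the same order, with 5.29 and 4.61 on the 2 Ase arrays with a value, 2.67, 2.79 and 2.49 on the GFP arrays, 5.07 in m3 and 4.50 in Ase+m3. It rose by 2.30 (SE 0.28, adjusted p = 0.00187). For both genes the mean of Ac, Sens and m3 averages a high group with a pair of low ones, so a difference from that mean is not a difference from m3. Whether Ase differed from m3 was not tested.

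CdGAPr and E(spl)m5-HLH were high in Ac+Sens as well. CdGAPr encodes a GTPase-activating protein. It was at 6.03, 6.17 and 6.14 in Ase and 3.91, 3.70 and 4.18 in GFP, a rise of 2.18 (SE 0.43, adjusted p = 0.0216). It averaged 6.34 in Ac+Sens and 4.02 in Ase+m3. In Sens it was at 5.97 and 6.08 on replicates 2 and 3, and at 3.74 on the array labelled replicate 1. The call was lost without Ase replicate 1, 2 or 3 (adjusted p = 0.090, 0.090 and 0.061) or GFP replicate 1 or 2 (0.074 and 0.10), and with the length trend removed (0.079). E(spl)m5-HLH, a Notch-responsive bHLH repressor, was at 6.03, 6.56 and 6.33 in Ase and 4.34, 4.08 and 4.16 in GFP. It rose by 2.11 (SE 0.48, adjusted p = 0.0467), but the call was lost without any 1 of the 6 arrays (adjusted p of 0.10 to 0.19). Its mean was 6.21 in Ac+Sens, 5.57 in Ac, 5.28 in Ase+m3 and 4.28 in m3. In Sens it was at 4.79 and 4.50 on replicates 2 and 3, and at 6.48 on the array labelled replicate 1.

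Nepl3, which encodes a neprilysin-like peptidase, was at 6.19, 6.24 and 6.03 in Ase and 4.49, 4.08 and 4.74 in GFP (1.72, SE 0.16, adjusted p = 9.27e-05). Ugt302K1, a UDP-glycosyltransferase gene, was at 6.16, 6.25 and 5.98 against 4.56, 4.80 and 4.71 (1.44, SE 0.19, adjusted p = 0.00212). For these genes, as for Hsc70-2, the Ase+m3 means of 4.99 and 4.47 were nearer to GFP than to Ase. CG30427, a fatty acyl-CoA reductase gene, rose by 2.15 (SE 0.21, adjusted p = 0.00022), from 4.73, 4.44 and 4.63 to 6.83, 6.73 and 6.68. It had intermediate means in Ase+m3 (5.57) and Ac (5.62). Its probe sets disagreed in size, since another differed by 1.06 and the last by −0.09.

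CG13081 and CG13082 are next to each other on chromosome arm 2L in the RefSeq gene table, and both rose. CG13081 was at 6.86, 7.04 and 6.71 in Ase and 4.49, 4.67 and 5.05 in GFP (2.13, SE 0.29, adjusted p = 0.00237). CG13082 was at 7.20, 7.06 and 6.88 against 5.27, 5.32 and 5.69 (1.62, SE 0.21, adjusted p = 0.000761). Both were high in Ase+m3, at 7.50 and 6.78. Among the 168 called genes with a chromosome arm, such adjacent pairs were few: 3 in all, the others being Cyp4p2 with Cyp4p1, which both fell, and aurB with Stam, which moved in opposite directions. Called genes were on the X chromosome in 5.36% of cases, against 15.7% of all genes.

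Ir76a, an ionotropic receptor gene, was raised in every over-expression group. It was at 6.64, 6.65 and 6.40 in Ase and 4.38, 4.41 and 5.54 in GFP, a rise of 1.78 (SE 0.33, adjusted p = 0.0118). The means of the other groups were 6.26 to 6.98, and Ase differed from the mean of Ac, Sens and m3 by −0.10 (95% interval −0.68 to 0.48). GFP replicate 3 stood above the other GFP arrays for this gene. The call was lost without Ase replicate 1 or 2 (adjusted p = 0.071 and 0.060) or GFP replicate 1 or 2 (0.067 and 0.077).

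Among the genes that fell, the first group was low in all over-expression groups and high in GFP alone. The cytochrome P450 gene Cyp4p2 was at 3.89, 3.97 and 3.97 in Ase and 8.43, 8.50 and 8.46 in GFP, a fall to a dim level (−4.52, SE 0.12, adjusted p = 1.58e-12). Its neighbour Cyp4p1 was at 3.51, 3.55 and 3.68 against 6.72, 6.97 and 6.80 (−3.25, SE 0.11, adjusted p = 7.55e-11). Hasp, which encodes a scaffold protein of cholinergic synapses, was at 4.35, 4.82 and 4.64 against 8.06, 8.50 and 8.46 (−3.73, SE 0.18, adjusted p = 3.06e-09). In the 5 other groups their means were 3.86 to 4.01, 3.31 to 3.88 and 4.25 to 4.45. Ase differed from the mean of Ac, Sens and m3 by 0.05 (95% interval −0.16 to 0.26) for Cyp4p2, 0.15 (−0.06 to 0.35) for Cyp4p1 and 0.29 (−0.02 to 0.60) for Hasp. The levels were thus as low in the groups without UAS-Ase, and all these differences rest on the same 3 GFP arrays.

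Zip102B, a zinc transporter gene, showed another order. Its level was 4.09, 4.16 and 4.04 on the Ase arrays and 7.81, 7.69 and 7.81 on the GFP arrays, a fall (−3.67, SE 0.25, adjusted p = 3.88e-07). It was also low in Ac+Sens (4.31), but at 6.82 in Ac, 7.48 in Sens, 7.94 in m3 and 7.80 in Ase+m3. The gene was thus at the control level on the arrays that carried UAS-Ase together with the repressor. Against the mean of Ac, Sens and m3, Ase was lower by −3.32 (95% interval −3.77 to −2.87, adjusted p = 2.67e-07).

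GstD5, a glutathione S-transferase gene, was at 4.04, 4.02 and 3.84 in Ase and 5.56, 6.28 and 5.54 in GFP (−1.82, SE 0.24, adjusted p = 0.000919). It was low in m3 (4.34) and Ase+m3 (3.84) too, and at 6.13 to 6.43 in Ac, Sens and Ac+Sens, so both groups with the repressor lay below GFP, as Ase did. CG43117 was at 4.38 and 4.41 on the Ase arrays with a value, against 5.89, 5.81 and 5.90 in GFP (−1.47, SE 0.12, adjusted p = 4.86e-06). All other groups averaged 5.82 to 6.16. Dtd, which encodes a D-aminoacyl-tRNA deacylase, was at 5.13, 5.45 and 5.11 against 6.32, 6.45 and 6.52 (−1.20, SE 0.16, adjusted p = 0.000775), with means of 6.23 to 6.49 in the other groups. For CG43117 and Dtd all other groups, Ase+m3 included, lay near GFP.

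**Figure D2:**
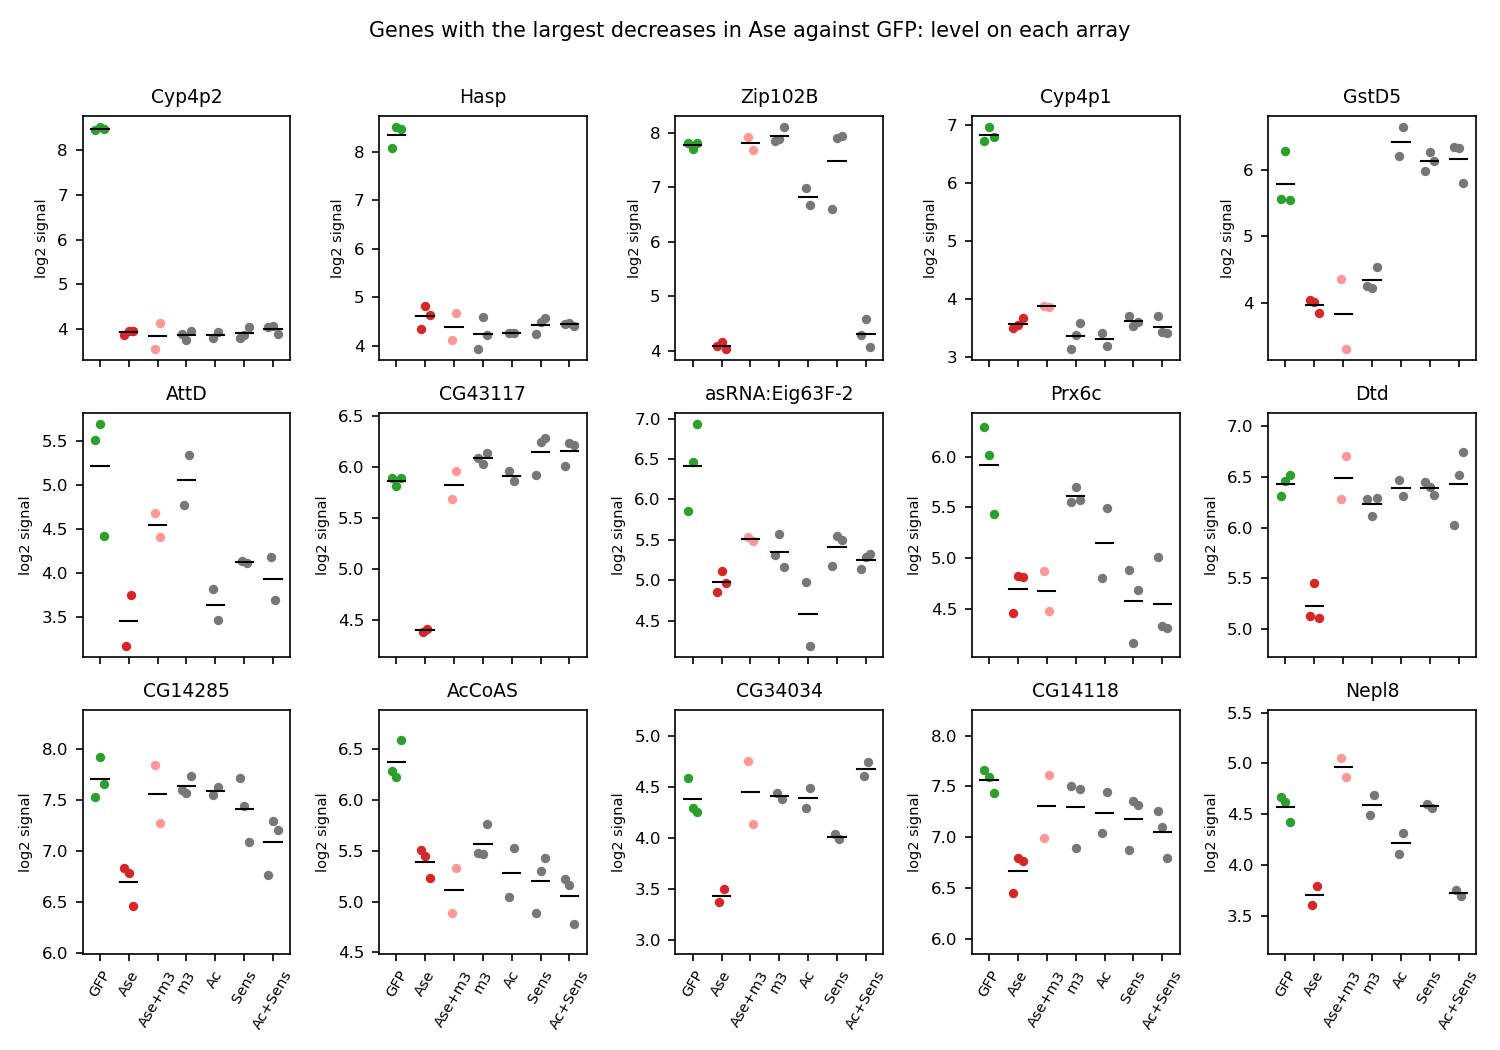
Log2 signal of the 15 called genes with the largest decrease, on each array (points) with the group mean (bar), by group. Colours are GFP green, Ase red and Ase+m3 pink. Cyp4p2, Hasp and Cyp4p1 are high in GFP alone, Zip102B is low in Ase and Ac+Sens, and CG43117 and Dtd are low in Ase alone.

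The antimicrobial peptide gene AttD was at 3.17 and 3.74 in Ase and 5.52, 5.70 and 4.43 in GFP (−1.76, SE 0.34, adjusted p = 0.0273). It was the only one of 23 measured immune genes that was called (4.35%, against 1.41% of all genes), and the list's median was 0.08. The other antimicrobial gene named, CecB, was at −0.84 (adjusted p = 0.221). The AttD call was lost without Ase replicate 1 or 2 (adjusted p = 0.26 and 0.075) or GFP replicate 1 or 2 (0.10 and 0.11).

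Smaller falls concerned a peroxiredoxin gene, Prx6c (−1.21, SE 0.25, adjusted p = 0.0241), the acetyl-CoA synthase gene AcCoAS (−0.98, SE 0.18, adjusted p = 0.0111), and the neprilysin-like gene Nepl8 (−0.87, SE 0.12, adjusted p = 0.00314). For AcCoAS the means of the other groups were 5.05 to 5.57, near the Ase mean, and the difference from Ac, Sens and m3 was 0.04 (95% interval −0.27 to 0.35). The probe set annotated as asRNA:Eig63F-2, an antisense RNA, fell by 1.44 (SE 0.23, adjusted p = 0.00345) and had the same pattern, at 4.58 to 5.51 elsewhere. CG14285 (−1.01), CG34034 (−0.95) and CG14118 (−0.89) had adjusted p of 0.0105, 0.0168 and 0.0387.

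Some of these calls were lost when 1 array was left out, which also leaves fewer arrays for the test. Prx6c was not called without Ase replicate 1, 2 or 3 (adjusted p = 0.15, 0.069 and 0.056) or GFP replicate 1 or 2 (0.12 and 0.11), nor with the length trend removed (0.088). CG14118 was not called without any 1 of the 6 arrays (0.063 to 0.21), although its difference stayed between −0.78 and −0.96. CG34034 was lost without Ase replicate 1 or 2 or GFP replicate 1 (0.17, 0.086 and 0.063) and CG14285 without Ase replicate 3 or GFP replicate 2 (0.053 and 0.069). AcCoAS was lost without Ase replicate 3 (0.053) and Nepl8 without Ase replicate 1 (0.065).

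Ase was then compared with the mean of Ac, Sens and m3, which shares the Ase arrays with the first comparison but uses none of the GFP arrays for the difference. It asks where Ase differed from the other factors given singly. Here 171 probe sets (0.911%) were called, 119 higher (0.634%) and 52 lower (0.277%), and by gene 83 higher (0.693%) and 40 lower (0.334%). Repeated quantile normalization gave 57 higher and 53 lower, and removal of the length trend 77 and 55. The total was 64 without Ase replicate 1, 75 without Ase replicate 2, 300 without the 2 Ase+m3 arrays and 142 without the array labelled Sens replicate 1. Of the 133 genes that rose against GFP, 59 were also called higher here and 74 were not called. Of the 36 that fell, 20 were also called lower and 16 were not. As both comparisons use the 3 Ase arrays, these shared calls are no independent check.

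The smallest p-values in this comparison among genes called in both belonged to Hsc70-2 (3.48, 95% interval 3.26 to 3.70), CG4962 (3.39, 3.10 to 3.69), CG18666 (2.83, 2.57 to 3.10), Zip102B and CG43117 (−1.65, −1.87 to −1.44). Osi9 (2.24, adjusted p = 1.4e-05), CG32055 (1.68, adjusted p = 2.21e-05) and Nepl3 (1.63, adjusted p = 4.3e-05) followed. Mtmr6, a myotubularin-family phosphatase gene, was at 7.61, 7.42 and 7.48 in Ase and 8.36, 8.19 and 8.42 in GFP, a fall of 0.82 against GFP (that is −0.82, SE 0.10, adjusted p = 0.000414) and of −0.89 against the other factors (adjusted p = 2.21e-05). Cbl, a ubiquitin ligase gene that down-regulates activated EGF receptors, was at 8.26, 8.42 and 8.18 against 8.92, 8.89 and 8.91. It fell by 0.62 (SE 0.09, adjusted p = 0.00138) against GFP and by 0.77 against the other factors (adjusted p = 2.21e-05), and was lowest in Ase+m3 (7.78). A dimmer probe set of Cbl went the other way, at 6.18, 5.76 and 5.88 in Ase and 5.38, 4.96 and 5.70 in GFP, and was not called (0.60, SE 0.44, adjusted p = 0.583), so the probe sets of Cbl disagreed. The calls of these 10 genes held in this comparison without each of the Ase and GFP arrays and without the array labelled Sens replicate 1. The GFP arrays enter this comparison only through the pooled spread. The 10 genes were also picked by their small p in it, so that their calls held is no independent check. The calls of CG13081 and CG32572 did not hold. CG13081 was lost without Ase replicate 1 or 2 (adjusted p = 0.060 and 0.073), and CG32572 without Ase replicate 1 or 2 (0.43 and 0.058) or the array labelled Sens replicate 1 (0.055).

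**Figure D3:**
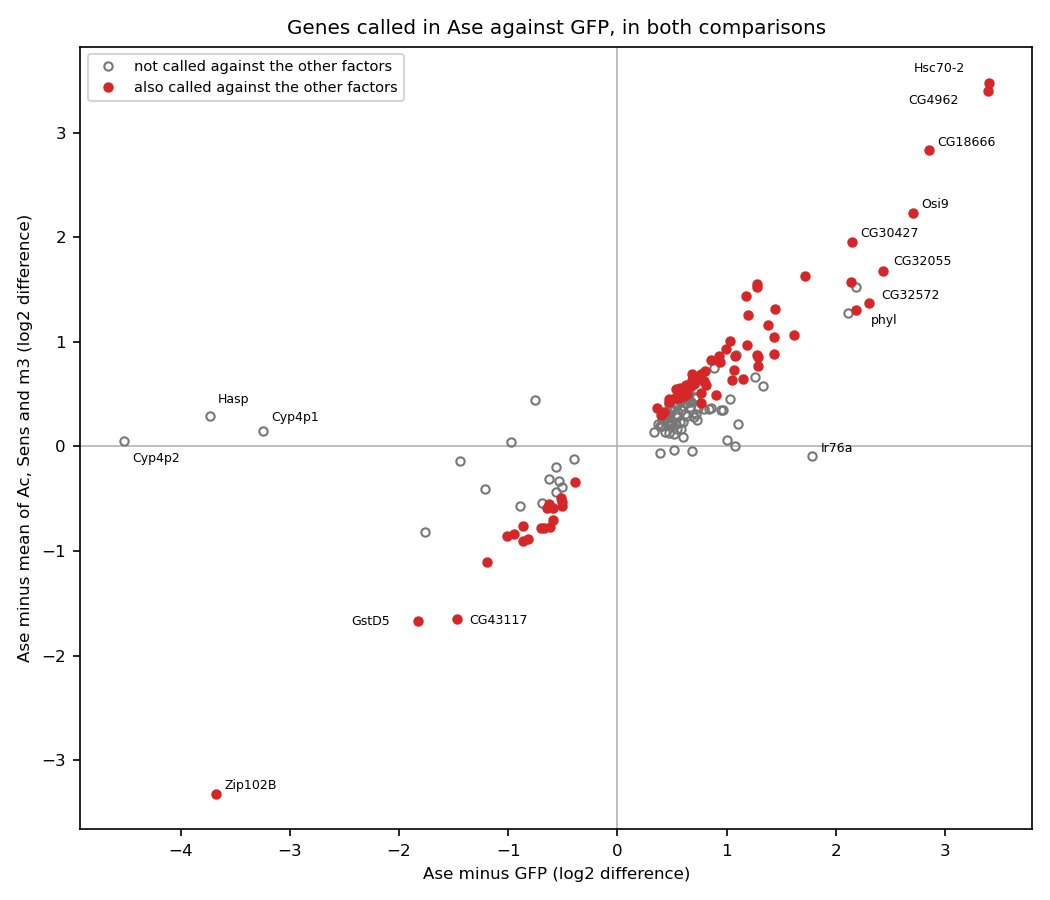
Each of the 169 genes called in Ase against GFP, by its log2 difference from GFP (horizontal) and from the mean of Ac, Sens and m3 (vertical). Filled red points were called in both comparisons. Cyp4p2, Cyp4p1, Hasp and Ir76a lie near 0 on the vertical axis, whereas Hsc70-2, CG4962, CG18666 and Zip102B differ by similar amounts on both axes, which share the Ase arrays.

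The precursor list had 29 measured genes, of which 3 rose and 0 fell, so that 10.3% were called, against 1.41% of all genes. Its median was 0.23, against 0.09 for all genes, and 86.2% of its members had positive differences, against 68.6%. The risers were phyl, edl and spdo. edl, a regulator of ETS-domain factors, was at 8.99, 8.89 and 8.91 in Ase and 8.51, 8.47 and 8.39 in GFP (0.47, SE 0.08, adjusted p = 0.00928). spdo, which encodes the Notch regulator Sanpodo that acts in asymmetric division, was at 6.45, 6.14 and 6.31 against 5.76, 5.64 and 5.64 (0.62, SE 0.12, adjusted p = 0.0136). numb, the segregated Notch inhibitor, was at 0.36 (95% interval 0.18 to 0.54) and missed the call (adjusted p = 0.0524). neur, the Delta ubiquitin ligase gene, was at 0.33 (95% interval 0.01 to 0.65, adjusted p = 0.324). The calls of edl and spdo were lost after repeated quantile normalization (adjusted p = 0.14 and 0.11), which left 1 called member and a median of 0.10. Other settings raised the count, to 6 without the 2 Ase+m3 arrays and to 4 with only the groups compared. edl was also lost without Ase replicate 1 (0.071) and with the length trend removed (0.34), and spdo without Ase replicate 1 or GFP replicate 2 (0.10 and 0.069).

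In the Enhancer of split and Bearded complexes, 1 of 13 measured genes was called (7.69%, against 1.41% of all genes), E(spl)m5-HLH, and the list's median was 0.11. E(spl)m4-BFM, a Bearded family gene that antagonises Neuralized, was at 8.19, 8.48 and 8.72 in Ase and 6.83, 6.39 and 6.31 in GFP. These arrays did not overlap, but the difference of 1.96 (SE 0.55) was not called (adjusted p = 0.10), and its 95% interval was 0.78 to 3.13. The SE includes the spread in the other groups. The SD of this gene was 0.26 in Ase and 0.28 in GFP, but 1.08 in Sens, 1.02 in Ac+Sens and 1.25 in Ase+m3. It averaged 8.69 in Ac+Sens and 5.71 in m3. The dim Bearded family gene BobA was at 0.37 (adjusted p = 0.177). The other 10 members lay between −0.09 and 0.19, among them E(spl)m7-HLH at 0.13 (SE 0.15), E(spl)mdelta-HLH at 0.08 (SE 0.11), E(spl)mbeta-HLH at 0.11 (SE 0.22), Brd at 0.19 (SE 0.47) and Tom at −0.03 (SE 0.11). The call of E(spl)m5-HLH was lost without any 1 of the 6 Ase and GFP arrays, so the count of this list was then 0. With only the groups compared the count was 2, and without the 2 Ase+m3 arrays it was also 2.

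Among genes of neuroblasts and asymmetric division 1 of 33 rose (3.03%, against 1.41% of all genes called), spdo, and the median was 0.20. klu, a zinc finger gene, was at 0.45 (adjusted p = 0.246). The Notch pathway list had 1 called member of 18 (5.56%), again spdo, and a median of 0.19. The protein O-glucosyltransferase gene rumi, needed for Notch signalling, was at −0.24 (adjusted p = 0.357). Of 16 EGF and FGF receptor signalling genes, 2 rose (12.5%), edl and Krn. All 16 had positive differences, with a median of 0.33. Of all genes, 1.41% were called and 68.6% had positive differences, with a median of 0.09. Krn, which encodes the EGF receptor ligand Keren, was at 8.79, 8.89 and 8.81 against 8.51, 8.33 and 8.46 (0.40, SE 0.08, adjusted p = 0.0241). The secreted inhibitor gene aos was at 0.30 (adjusted p = 0.165) against GFP and at 0.44 against the other factors (adjusted p = 0.0179), a call lost without Ase replicate 1, 2 or 3 (0.15, 0.059 and 0.086). With the length trend removed the EGFR median fell to 0.12 and 0 members were called, and without Ase replicate 1 the count was 0 too. Without the 2 Ase+m3 arrays the count was 3. The Krn call was lost without any 1 of the 6 arrays (0.051 to 0.13).

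Of the genes of later stages of organ formation, neuronal and cilium genes were below the median of all genes (0.09) and bristle genes above it. This order held only with dim probe sets included. Over probe sets with a mean above 5, the medians were 0.16 for 12 neuronal, 0.33 for 4 cilium and 0.23 for 15 bristle genes. All of these lay above the median of 0.11 for all such probe sets. None of 32 neuronal genes was called (median 0.01) and none of 22 cilium and mechanosensation genes (median −0.01), of which 21 and 20 had no value on Ase replicate 3. In the neuronal list, the guidance receptor gene fra was at 0.23 (adjusted p = 0.463) and the transporter gene VGlut at −0.32 (adjusted p = 0.311). A dim second probe set of VGlut went the other way and was not called either (0.23, adjusted p = 0.489). Of 23 bristle shaft, socket and trichome genes 2 rose (8.70%, against 1.41% of all genes called), with a median of 0.23 and positive differences in 22 of 23. dy, which encodes a zona pellucida domain protein of the apical matrix, was at 6.12, 5.83 and 6.30 against 5.27, 4.48 and 5.25 (1.08, SE 0.22, adjusted p = 0.0308). y, which is needed for black pigment, was at 3.64 and 3.52 against 3.05, 3.12 and 2.93 (0.54, SE 0.11, adjusted p = 0.0337). Both calls were lost with the length trend removed (0.15 and 0.28), where the list's median was 0.02. dy was also lost without Ase replicate 1, 2 or 3 or GFP replicate 2 (0.14, 0.057, 0.10 and 0.11), and y without Ase replicate 1 or 2, GFP replicate 1, 2 or 3 or the array labelled Sens replicate 1 (0.050 to 0.27).

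The detoxification list held opposite changes. Of 37 measured genes, 3 fell (Cyp4p2, Cyp4p1 and GstD5) and 1 rose, with a median of 0.14. Thus 10.8% were called, against 1.41% of all genes. The riser, the cytochrome P450 gene Cyp4e2, was at 8.47, 8.35 and 8.30 in Ase and 7.37, 7.40 and 7.21 in GFP (1.05, SE 0.17, adjusted p = 0.00363). The ecdysteroid hydroxylase gene Cyp18a1 was at 0.63 (adjusted p = 0.117). For the cell cycle, 1 of 23 genes fell (4.35% called) and the median was 0.01. This was the mitotic kinase gene aurB, at 9.72, 9.78 and 9.75 against 10.09, 10.30 and 10.06 (−0.40, SE 0.09, adjusted p = 0.0497), a call lost without any 1 of the 6 arrays or the array labelled Sens replicate 1 (0.060 to 0.21). Cyclin D (CycD) was at 0.22 (adjusted p = 0.243) and E2f2 at 0.26 (adjusted p = 0.131).

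**Figure D4:**
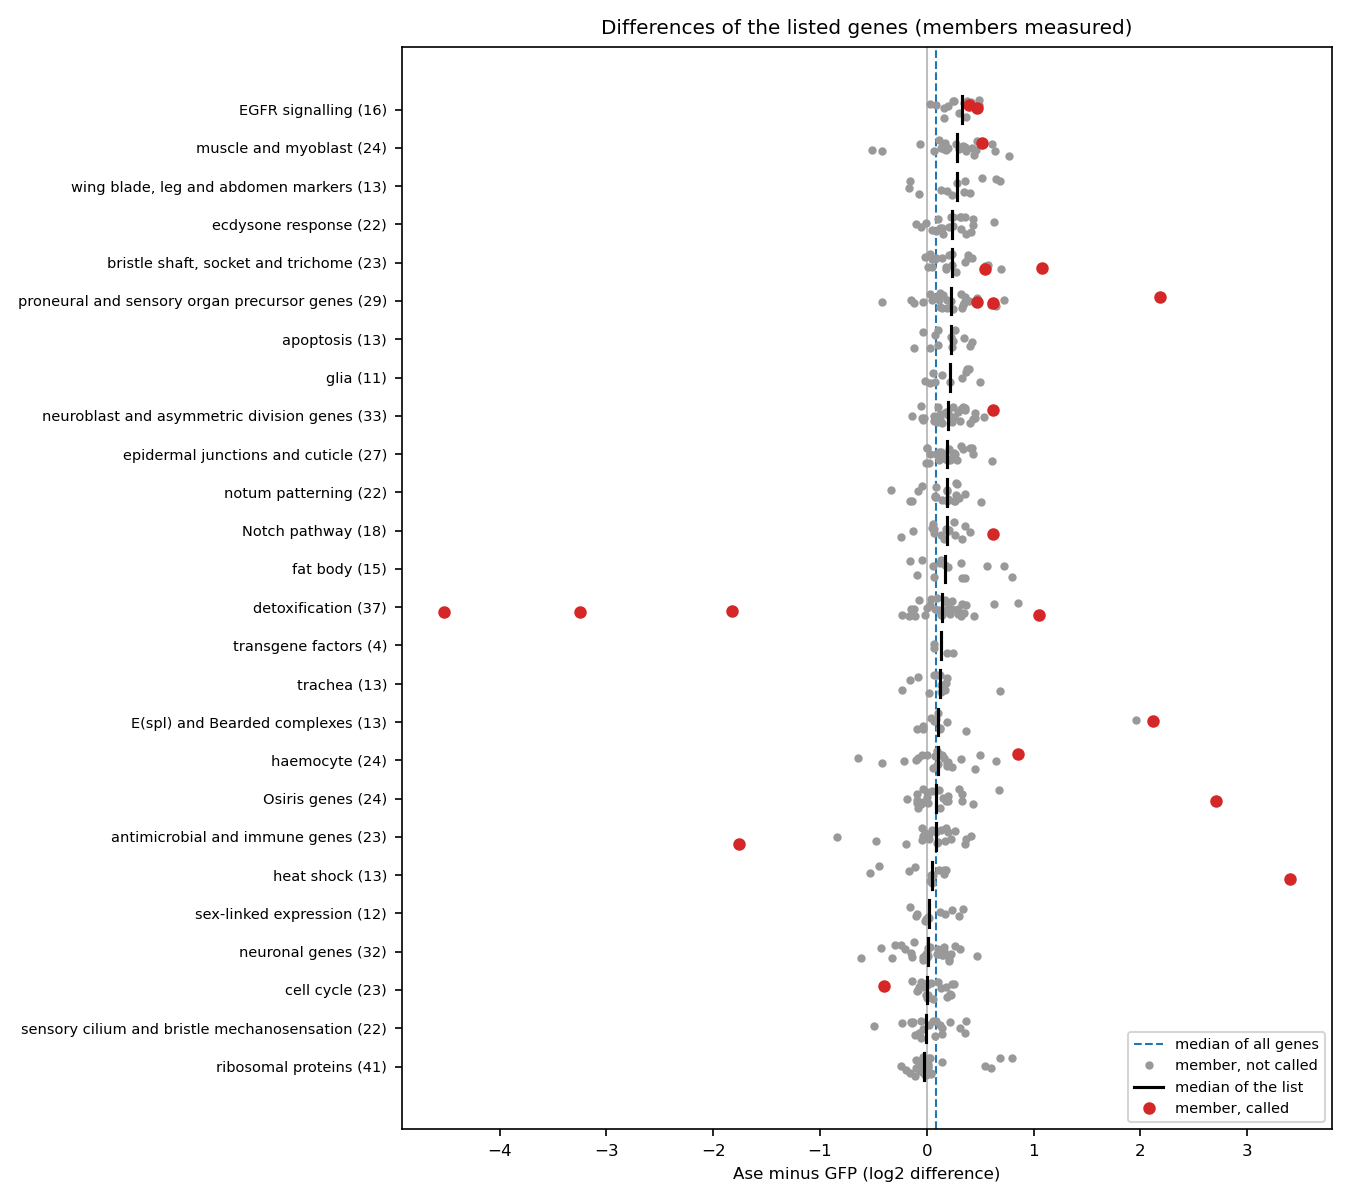
Log2 differences of Ase minus GFP for the measured members of each gene list (number in brackets), 1 point per gene, with the list's median (bar) and the median of all genes (dashed line, 0.09). Red points were called. Most lists have no or 1 called member, and the largest differences belong to single members such as Hsc70-2, Osi9, phyl and Cyp4p2.

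Patterning and housekeeping lists held no called gene. These were the 22 notum patterning genes (median 0.19), 27 genes of epidermal junctions and cuticle (0.19), 22 ecdysone response genes (0.24), 13 apoptosis genes (0.23), 12 genes of sex-linked expression (0.02) and 41 ribosomal protein genes (−0.03). The Iroquois gene ara was at −0.34 (adjusted p = 0.285) and the ecdysone receptor partner gene usp at 0.25 (adjusted p = 0.277). After repeated quantile normalization, which moved the median of all probe sets to −0.06, these medians were 0.08, 0.10, 0.10, 0.10, −0.11 and −0.09 in the same order, so that of sex-linked expression changed sign.

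Markers of other cells that a dissected notum can hold were also measured. Among haemocyte genes 1 of 24 rose (4.17%, against 1.41% of all genes called), with a median of 0.10. It was NimC1, a phagocytosis receptor gene of plasmatocytes, at 5.83 and 5.95 against 5.14, 5.08 and 4.87 (0.86, SE 0.15, adjusted p = 0.0145), lost without Ase replicate 1 or 2 (0.091 and 0.14). The haemocyte markers Hml and He were at 4.41 and 2.81 in Ase and 4.41 and 3.23 in GFP. Among muscle and myoblast genes 1 of 24 rose (4.17%), with a median of 0.29. This was Act79B, an actin gene of adult muscles, at 0.52 (SE 0.11, adjusted p = 0.0219), lost without Ase replicate 1 or 2 or GFP replicate 2 or 3 (0.14, 0.069, 0.11 and 0.075). None of 13 tracheal (median 0.12), 15 fat body (0.17), 11 glial (0.21) or 13 wing, leg and abdomen genes (0.28) was called.

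The signal of each marker set was also summed on each array, over its markers with a value on all 6. For the haemocyte markers srp and Pxn the sum was 7.57 to 7.83 (log2) in GFP and 8.08 to 8.33 in Ase. For the neuronal marker elav it was 7.80 to 8.53 and 8.58 to 8.73, and for glial markers 10.59 to 10.86 and 11.01 to 11.15. In these sets the arrays did not overlap, and they did not for 35.2% of all genes. Positive differences were found for 68.6% of all genes. The haemocyte markers Hml, NimC1 and He were listed at 0 on Ase replicate 3 and left out, with differences of 0.00, 0.86 and −0.42. The neuronal markers fne, brp and nSyb were left out likewise, with differences of 0.31, −0.02 and −0.03. For muscle markers (11.78 to 12.01 and 11.90 to 12.06), tracheal markers (11.76 to 12.00 and 11.54 to 12.09) and fat body markers (11.96 to 12.59 and 12.42 to 12.89) the arrays overlapped. For the precursor markers phyl, sens and neur the sum was 9.37 to 9.52 in GFP and 9.85 to 10.10 in Ase. Of these only phyl was called (2.19), while sens and neur differed by 0.19 and 0.33. The marker ase was listed at 0 on Ase replicate 3 and left out, with a difference of 0.24, and sca was not measured. The part of such cells in the differences of single genes was not tested.

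The differences also moved with gene length. With genes in 4 classes of equal number by the span of the transcription unit, the median difference was, from short to long, 0.02, 0.05, 0.10 and 0.17. The share of genes called higher was 0.471%, 0.842%, 1.62% and 1.51%. The trend was present on single arrays. Across 6082 genes, which are not independent replicates, the deviation from the median array had a Spearman correlation with length of −0.601 on GFP replicate 2, 0.337 on Ase replicate 1 and 0.436 on Ase replicate 3, and of −0.132 to 0.013 on the other GFP arrays and Ase replicate 2. Without GFP replicate 2 the class medians were 0.06, 0.06, 0.08 and 0.12. The part of this trend in the rises was not tested beyond the fit with the trend removed, in which phyl, Hsc70-2, CG4962, CG18666 and Osi9 remained called.

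**Figure D5:**
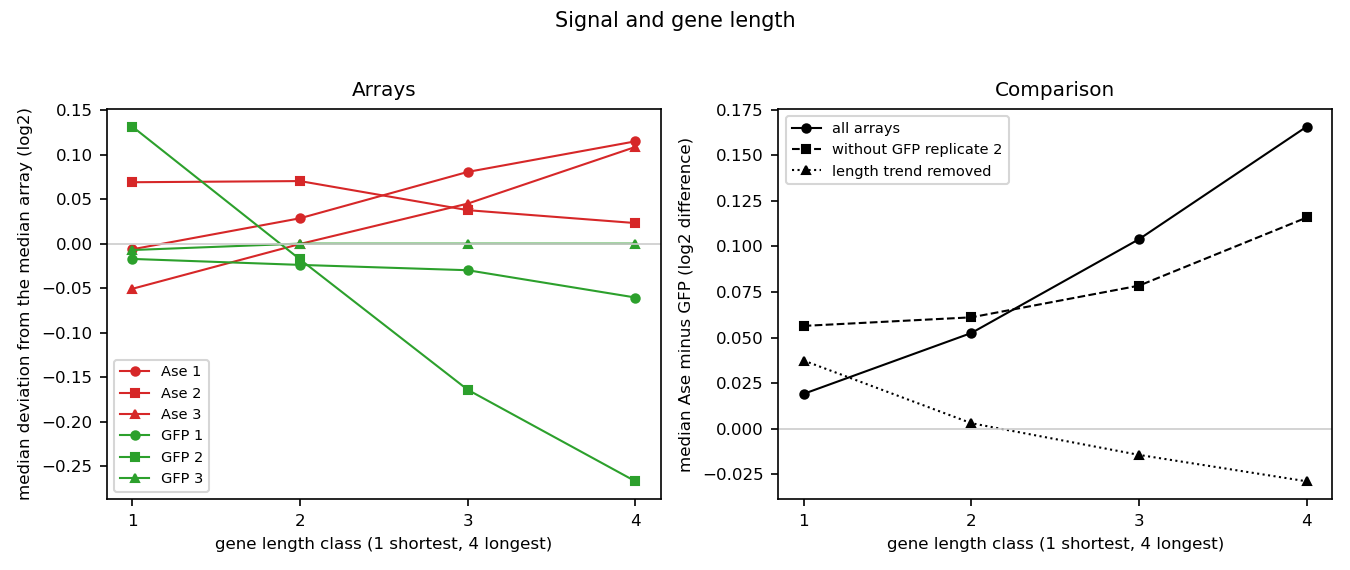
Left, median deviation of each Ase and GFP array from the median array (log2) in 4 classes of gene length, from shortest to longest. Right, median log2 difference of Ase minus GFP in these classes with all arrays, without GFP replicate 2 and with the length trend removed. GFP replicate 2 falls and Ase replicates 1 and 3 rise with length, and the median difference rises from 0.02 to 0.17.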

How the data were processed

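RNA of pooled notums was measured on Affymetrix arrays from 500 ng of total RNA. As deposited, the values are log2 signals per probe set, made by the authors with RMA (background correction, quantile normalization and probe summary), per the submitters' processing notes, and neither its version nor any further step was stated. Exact zeros, found on 4 arrays, were treated as missing, and the rule that made them is unknown. No scan dates or detection calls were used, so batches were not tested, and the number of arrays limits the precision. The labels speak of biological replicates.

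Gene symbols came from the platform annotation: of the probe sets, 13647 name 1 gene, 402 several and 4720 none here, and only the first were named. Symbols were compared with a RefSeq table (Release 6), which gave 0 updates, chromosome arms and gene spans. Of several probe sets for a gene, the one brightest on average over the 15 arrays free of zeros was shown.

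Limma 3.58.1 in R 4.3.3 fitted 1 model with 7 group means to all 19 arrays. P-values are two-sided, moderated and Benjamini-Hochberg adjusted over 18769 probe sets, with a call under 0.05. Adjusted p-values beside an n under 10 come from this model. On simulated data the Ase against GFP fit recovered 28% of log2 changes of 0.5, 90% of 1 and 100% of 2 and 4, with 10 unchanged probe sets called. The simulated noise was normal and independent between probe sets, without the length trends and outlying arrays of the real data. These rates therefore need not hold for the real arrays.

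The genes named are the 5 genes ac, ase, sc, E(spl)m3-HLH and sens, then, of called genes whose arrays do not overlap, the 15 that rose most and the 15 that fell most, up to 4 members of each of 27 lists by smallest p, every measured gene of the Enhancer of split and Bearded complexes, and the 10 shared by both comparisons with the smallest p against Ac, Sens and m3. The list of driver and transgene background had 0 measured genes, and that of transgene factors had 4, none called (median 0.13). The members, lists and comparisons were chosen with earlier results of these data known. Alternatives are described in the closing section.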

Additional observations from a re-analysis of the deposited data

How the results depend on the processing

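The total of 233 probe sets called in Ase against GFP was 118 over probe sets measured on all 19 arrays, 143 over those with a mean above 5, 114 after repeated quantile normalization, 501 without the 2 Ase+m3 arrays, 422 without these and Sens replicate 1 (a setting chosen after seeing the data), and 3532 with array weights, which ranged from 0.083 for an Ase+m3 array to 27.6 for an Ac+Sens array. Leaving out 1 Ase or GFP array gave 84 to 206. The total of 171 against Ac, Sens and m3 was 337 with only the groups compared, 300 without the 2 Ase+m3 arrays, 77 over probe sets measured on all 19 arrays, 106 without the 4 arrays with zeros, 110 after quantile normalization, 102 with a mean above 5, 235 without the 2 Ase+m3 arrays and Sens replicate 1, and 2085 with array weights, and 64 to 156 without 1 array. The cause was not tested, except that some settings test fewer probe sets or use fewer arrays. Among called named genes no alternative reversed a direction. Deviations of same-numbered Ase and GFP arrays correlated by 0.081, 0.218 and 0.123, and those of differently numbered arrays by −0.319 to 0.268. Ase replicates 1 and 2 correlated best with the GFP array of the same number, but Ase replicate 3 with GFP replicate 1 (0.268). Whether the replicate numbers mark pairs is unknown. With the number as a replicate block, 180 and 140 probe sets were called, 4 named calls against GFP were lost (aurB, CG14118, y and E(spl)m5-HLH) and 2 against Ac, Sens and m3 (Cyp4e2 and CG32572). Dim genes listed at 0 on Ase replicate 3 are limited by that missing value, and changes near 0.5 by the number of arrays.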

Other observations

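The genes below fall outside the rule for named genes and were chosen after their values were seen. Levels are log2 signals on single arrays, differences are log2, and adjusted p-values are from limma over all probe sets. path, which encodes an amino acid transporter, was at 9.35, 9.55 and 9.44 in Ase and 7.91, 7.84 and 8.30 in GFP, a rise of 1.43 (SE 0.23, adjusted p = 0.00432). Its means were 9.19 in Ase+m3, 8.94 in Ac+Sens, 8.71 in Sens, 8.29 in m3 and 8.20 in Ac. The homeobox gene achi was at 5.70 and 5.86 in Ase (listed at 0 on the other Ase array and left out there) and 4.53, 4.55 and 4.82 in GFP (1.15, SE 0.13, adjusted p = 0.00111). Its means were 5.92 in Ac+Sens, 5.75 in Ase+m3, 5.45 in m3 and 5.39 in Sens, all above GFP, and 4.58 in Ac, near GFP. Treh, which encodes the enzyme that splits trehalose, the sugar of the haemolymph, was at 8.65, 8.84 and 8.82 against 8.27, 8.14 and 8.20 (0.56, SE 0.08, adjusted p = 0.0018). Its other group means were 8.06 to 8.31, near GFP, but the call was lost with the length trend removed (adjusted p = 0.39). Of the genes that fell, spd-2, a centrosome gene, was at 8.11, 7.88 and 8.08 in Ase and 8.82, 8.53 and 8.84 in GFP (−0.70, SE 0.10, adjusted p = 0.00183). It also lay below the other factors by −0.78 (adjusted p = 0.00011). Zmynd10, which acts in the assembly of the dynein arms of motile cilia, was at 5.53, 5.46 and 5.07 against 6.00, 6.00 and 6.07 (−0.67, SE 0.13, adjusted p = 0.015), a call lost without Ase replicate 3, GFP replicate 1 or GFP replicate 2 (adjusted p = 0.057, 0.053 and 0.058).

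yellow-d, of the yellow family, was at 6.81, 6.83 and 6.78 in Ase and 5.58, 5.49 and 5.48 in GFP, a rise of 1.29 (SE 0.12, adjusted p = 2.96e-05). Its mean was higher still in Ac+Sens (7.55), and was 6.56 in Ase+m3, 6.14 in Sens, 6.07 in Ac and 5.65 in m3. One probe set of gkt was at 6.46, 6.69 and 6.68 in Ase and 4.50, 4.28 and 4.51 in GFP (2.18, SE 0.12, adjusted p = 3.88e-07), with means of 4.39 to 4.81 in all other groups. The brighter probe set that represents the gene differed by 0.25 (adjusted p = 0.243), so the probe sets of gkt disagreed. Dred was at 4.79 and 5.37 in Ase, within reach of the GFP arrays (4.80, 4.58 and 5.08), whereas its means were 9.38 in Ac, 9.26 in Sens and 8.92 in Ac+Sens, and 5.30 in m3. Its difference from GFP was 0.26 (SE 0.22, adjusted p = 0.629) and that from Ac, Sens and m3 −2.90 (SE 0.19, adjusted p = 1.58e-06). A probe set of unc-13-4A had the same order, at 2.73 and 2.89 in Ase, 6.50 in both Ac and Sens and 2.80 in m3, and a difference of −2.46 from the other factors (SE 0.28, adjusted p = 0.000422). For both genes the level in Ase was near that in m3, so the differences from the mean of Ac, Sens and m3 come from Ac and Sens. Other probe sets of unc-13-4A differed by −0.60 (adjusted p = 0.0192) and by −0.04 and 0.04.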
